A study of Mus musculus with 26 samples.

Results

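The Iroquois homeobox genes Irx1, Irx2, Irx3, Irx4, Irx5 and Irx6 were followed across the RNA-seq libraries of a study of the de novo DNA methyltransferases DNMT3A and DNMT3B in mouse fibroblasts and embryonic organs. They were taken from the deposited expression table by gene symbol, which gave 6 of its 52454 symbols, with 1 row for each. All 6 are accounted for below: each reached 1 FPKM (fragments per kilobase, a level corrected for transcript length and for how many reads of the library were mapped) in at least 1 library.

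Iroquois proteins are transcription factors of the TALE class of homeodomain proteins, named after the fly genes that pattern the body wall. Mammals carry them as a pair of clusters, IrxA with Irx1, Irx2 and Irx4 and IrxB with Irx3, Irx5 and Irx6, in which the genes lie far apart among long-range regulatory sequences. They take part in early patterning of the nervous system, limb and heart: Irx4 is a marker of ventricular heart muscle, Irx3 acts in the ventricular conduction system, Irx5 acts in the gradient of electrical recovery across the ventricular wall, and Irx3 and Irx5 act together in the early limb bud. As developmental regulators with CpG-rich promoters they belong to the kind of gene that Polycomb complexes hold silent in cells that do not use them.

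The 10 RNA-seq libraries were 1 per condition. In the 2i-MEFs, embryonic fibroblasts made from gene-edited ES cells, the conditions were Dnmt3a KO and Dnmt3b KO. Each came from a female F1 (129X1/SvJ and MSM/Ms) ES line edited with CRISPR/Cas9 and kept in 2i/L medium (2 kinase inhibitors with LIF), which was injected into ICR blastocysts. Fibroblasts were taken from the chimeras at E14.5, freed of host cells by GFP sorting and G418 selection, and used at passage 1, so that each stands for 1 edited ES line. The MEFs from embryos were male, E14.5, labelled C57BL6 and at passage 1, from crosses of mice heterozygous for a Dnmt3a null allele on a mixed B6 and 129S4 background. Those labelled Dnmt3a WT and those labelled Dnmt3a KO were each given DMSO or 10 µM GSK126, an inhibitor of the Polycomb enzyme EZH2, for 2 days. Heart and liver came from E14.5 male embryos of the same cross, labelled number 4 for WT and number 25 for Dnmt3a KO, the same number in both organs. Neither WT 2i-MEFs nor the 16 samples taken for DNA methylation are analysed here.

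The libraries held an estimated 9174301 to 26225897 mapped reads, and 1 FPKM on a transcript of 2000 bases was worth 16.5 to 47.18 reads. Dnmt3a itself was at 4.21 FPKM in the Dnmt3a KO 2i-MEFs and 23.9 FPKM in the Dnmt3b KO 2i-MEFs, in the order of the labels. In MEFs the order was opposite to the labels: Dnmt3a was at 85.7 and 84.5 FPKM in the libraries labelled Dnmt3a KO and at 26.1 and 19.3 FPKM in the WT libraries. Heart showed the same opposition, with 125 FPKM labelled KO and 55.0 FPKM WT, whereas liver showed 12.7 and 53.5 FPKM. A level over the whole gene cannot tell a transcript that carries the null allele from an intact one, nor either from exchanged labels, so these libraries are named below by their labels. An exchange would turn the direction of each ratio of labelled Dnmt3a KO to WT in that tissue. Summed levels of 5 cardiomyocyte markers were 7034 and 6835 FPKM in heart against 1.53 to 9.46 FPKM in the 6 fibroblast libraries, 5 hepatocyte markers summed to 17715 and 10701 FPKM in liver, and 5 fibroblast markers summed to 5334 to 16686 FPKM in the fibroblast libraries, so tissue labels and markers went together. With 1 library per condition no difference below has a replicate check or a p-value of its own, and the intervals given are 95% intervals for counting error only.

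On the mm10 assembly the IrxA genes lie on chromosome 13 over 1312 kb. Irx1 (ENSMUSG00000060969.9) runs from 71957921 to 71963723 on the minus strand, Irx2 (ENSMUSG00000001504.10) from 72628820 to 72634198 on the plus strand and Irx4 (ENSMUSG00000021604.15) from 73260479 to 73269608 on the plus strand. The IrxB genes lie on chromosome 8 over 882.4 kb. Irx3 (ENSMUSG00000031734.13) runs from 91798525 to 91802067 on the minus strand, Irx5 (ENSMUSG00000031737.11) from 92357625 to 92376286 and Irx6 (ENSMUSG00000031738.14) from 92674288 to 92680956, both on the plus strand. The gaps between members are 665.1 and 626.3 kb in IrxA and 555.6 and 298.0 kb in IrxB, so that in order along each cluster the last gene, Irx4 or Irx6, is the one that reached 1 FPKM in heart alone.

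Promoter sequences are shown for Irx2 and Irx4, which share the IrxA cluster and the plus strand and were both read in heart, Irx2 alone in fibroblasts. A window was also matched for Irx3 but is not shown, since all 230 of its bases lie within annotated exons of Irx3. They are RefSeq sequences on GRCm38.p6, 250 to 21 bases before the start of the transcript, and capitals mark each CG, the base pair step that DNMT3A and DNMT3B methylate. The Irx2 sequence is chr13:72628570-72628799 and the Irx4 sequence is chr13:73260247-73260476.
Irx2: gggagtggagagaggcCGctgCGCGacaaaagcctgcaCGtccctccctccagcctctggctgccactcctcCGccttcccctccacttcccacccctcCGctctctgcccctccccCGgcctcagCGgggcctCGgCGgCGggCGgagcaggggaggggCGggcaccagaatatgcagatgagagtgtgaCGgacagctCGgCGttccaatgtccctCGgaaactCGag
Irx4: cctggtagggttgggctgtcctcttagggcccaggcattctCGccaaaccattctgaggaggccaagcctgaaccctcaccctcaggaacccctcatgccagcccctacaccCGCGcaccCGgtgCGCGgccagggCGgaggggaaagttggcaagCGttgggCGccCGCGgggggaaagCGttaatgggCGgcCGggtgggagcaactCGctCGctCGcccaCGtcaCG
The 2 windows were close in base composition. Irx2 held 18 CG steps and was 69.1% G or C, and Irx4 held 19 and was 67.8% G or C, where the median over the 32851 promoters of the table was 5 CG steps and 51.7% G or C. Of those promoters 17.8% held at least as many CG steps as Irx2, 16.1% as many as Irx4, and 91.1% held at least 1. The letters TATAAA, searched on both strands, were in neither window and in 11.8% of all promoters. Genes with CG-rich promoters of this kind were thus read in every fibroblast library (Irx2) and in none (Irx4). The window of Irx3, which was also read in every fibroblast library, held 11 CG steps and was 53.9% G or C. Of all promoters 32.5% held at least as many CG steps as Irx3.

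Irx4 was a gene of the heart libraries. Its level was 36.2 FPKM (34.4 to 38.1) in the WT heart and 40.0 FPKM (37.9 to 42.2) in the heart labelled Dnmt3a KO, from at least 1500 and 1347 reads. It was listed at 0 in all 6 fibroblast libraries and in both livers, where 3 reads would have been worth 0.0524 to 0.150 FPKM. Irx4 was the highest Iroquois gene of the heart, ranked 3037 and 2800 among all symbols of those libraries.

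Irx6, the last gene of the other cluster, which is known from retinal bipolar cells, was likewise at 1 FPKM or more in heart alone and was much lower than Irx4. It stood at 2.84 FPKM (2.39 to 3.35) in the WT heart and 2.04 FPKM (1.63 to 2.53) in the heart labelled Dnmt3a KO. Outside the heart it was listed at 0 in 6 libraries, at 0.0829 FPKM from about 2 reads in the Dnmt3b KO 2i-MEFs, and at 0.114 FPKM from 6 or 7 reads in the WT MEFs with GSK126. Values resting on 2 to 7 reads are not taken as a difference between fibroblast libraries.

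Irx1 was the highest Iroquois gene in each of the 6 fibroblast libraries. In 2i-MEFs it was at 31.8 FPKM (25.9 to 38.6) with Dnmt3a KO and 41.6 FPKM (34.2 to 50.0) with Dnmt3b KO. In MEFs it was at 29.2 and 39.8 FPKM in the WT libraries with DMSO and GSK126, and at 17.8 and 20.9 FPKM in the same order in the libraries labelled Dnmt3a KO. In heart it was at 11.4 and 11.7 FPKM, with an interval of 8.80 to 15.3 labelled Dnmt3a KO that met that of the lowest fibroblast library (14.9 to 21.1), and it was listed at 0 in both livers.

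Irx2, the neighbour of Irx1, had its highest levels in 2i-MEFs, at 22.8 FPKM with Dnmt3a KO and 22.2 FPKM with Dnmt3b KO. Its MEF levels were 10.8 FPKM for WT with DMSO, 17.5 FPKM for WT with GSK126, 6.51 FPKM labelled Dnmt3a KO with DMSO and 9.43 FPKM labelled Dnmt3a KO with GSK126. The hearts held 11.3 and 11.5 FPKM and the livers were listed at 0. Irx1 and Irx2 were thus close to equal in heart, where the ratio of their FPKM was 1.01 and 1.02, whereas in fibroblasts Irx1 stood 1.39 to 2.74 times as high as Irx2, with counting intervals that met only in the Dnmt3a KO 2i-MEFs, at the lowest of these ratios.

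Over the 8 fibroblast and heart libraries Irx3 had 6.97 FPKM as its lowest level, 12.2 FPKM as its median and 17.1 FPKM as its highest. Its highest level was 2.46 times its lowest, beside 2.38 times for Irx5. Both extremes were 2i-MEF libraries, 17.1 FPKM (15.6 to 18.8) with Dnmt3a KO and 6.97 FPKM (5.91 to 8.16) with Dnmt3b KO. The 4 MEF libraries lay between them at 9.82 to 12.7 FPKM, and the hearts held 13.6 and 15.7 FPKM.

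Irx5, the partner of Irx3 in limb and heart, was lower than Irx3 in each of these 8 libraries, by a ratio of 1.19 in the Dnmt3b KO 2i-MEFs to 2.83 in the MEFs labelled Dnmt3a KO with GSK126. Its level was 8.26 and 5.86 FPKM in the Dnmt3a KO and Dnmt3b KO 2i-MEFs, 6.25 and 6.27 FPKM in WT MEFs with DMSO and GSK126, and 4.12 and 3.47 FPKM in the MEFs labelled Dnmt3a KO. The hearts held 7.85 and 7.49 FPKM.

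**Figure D1:**
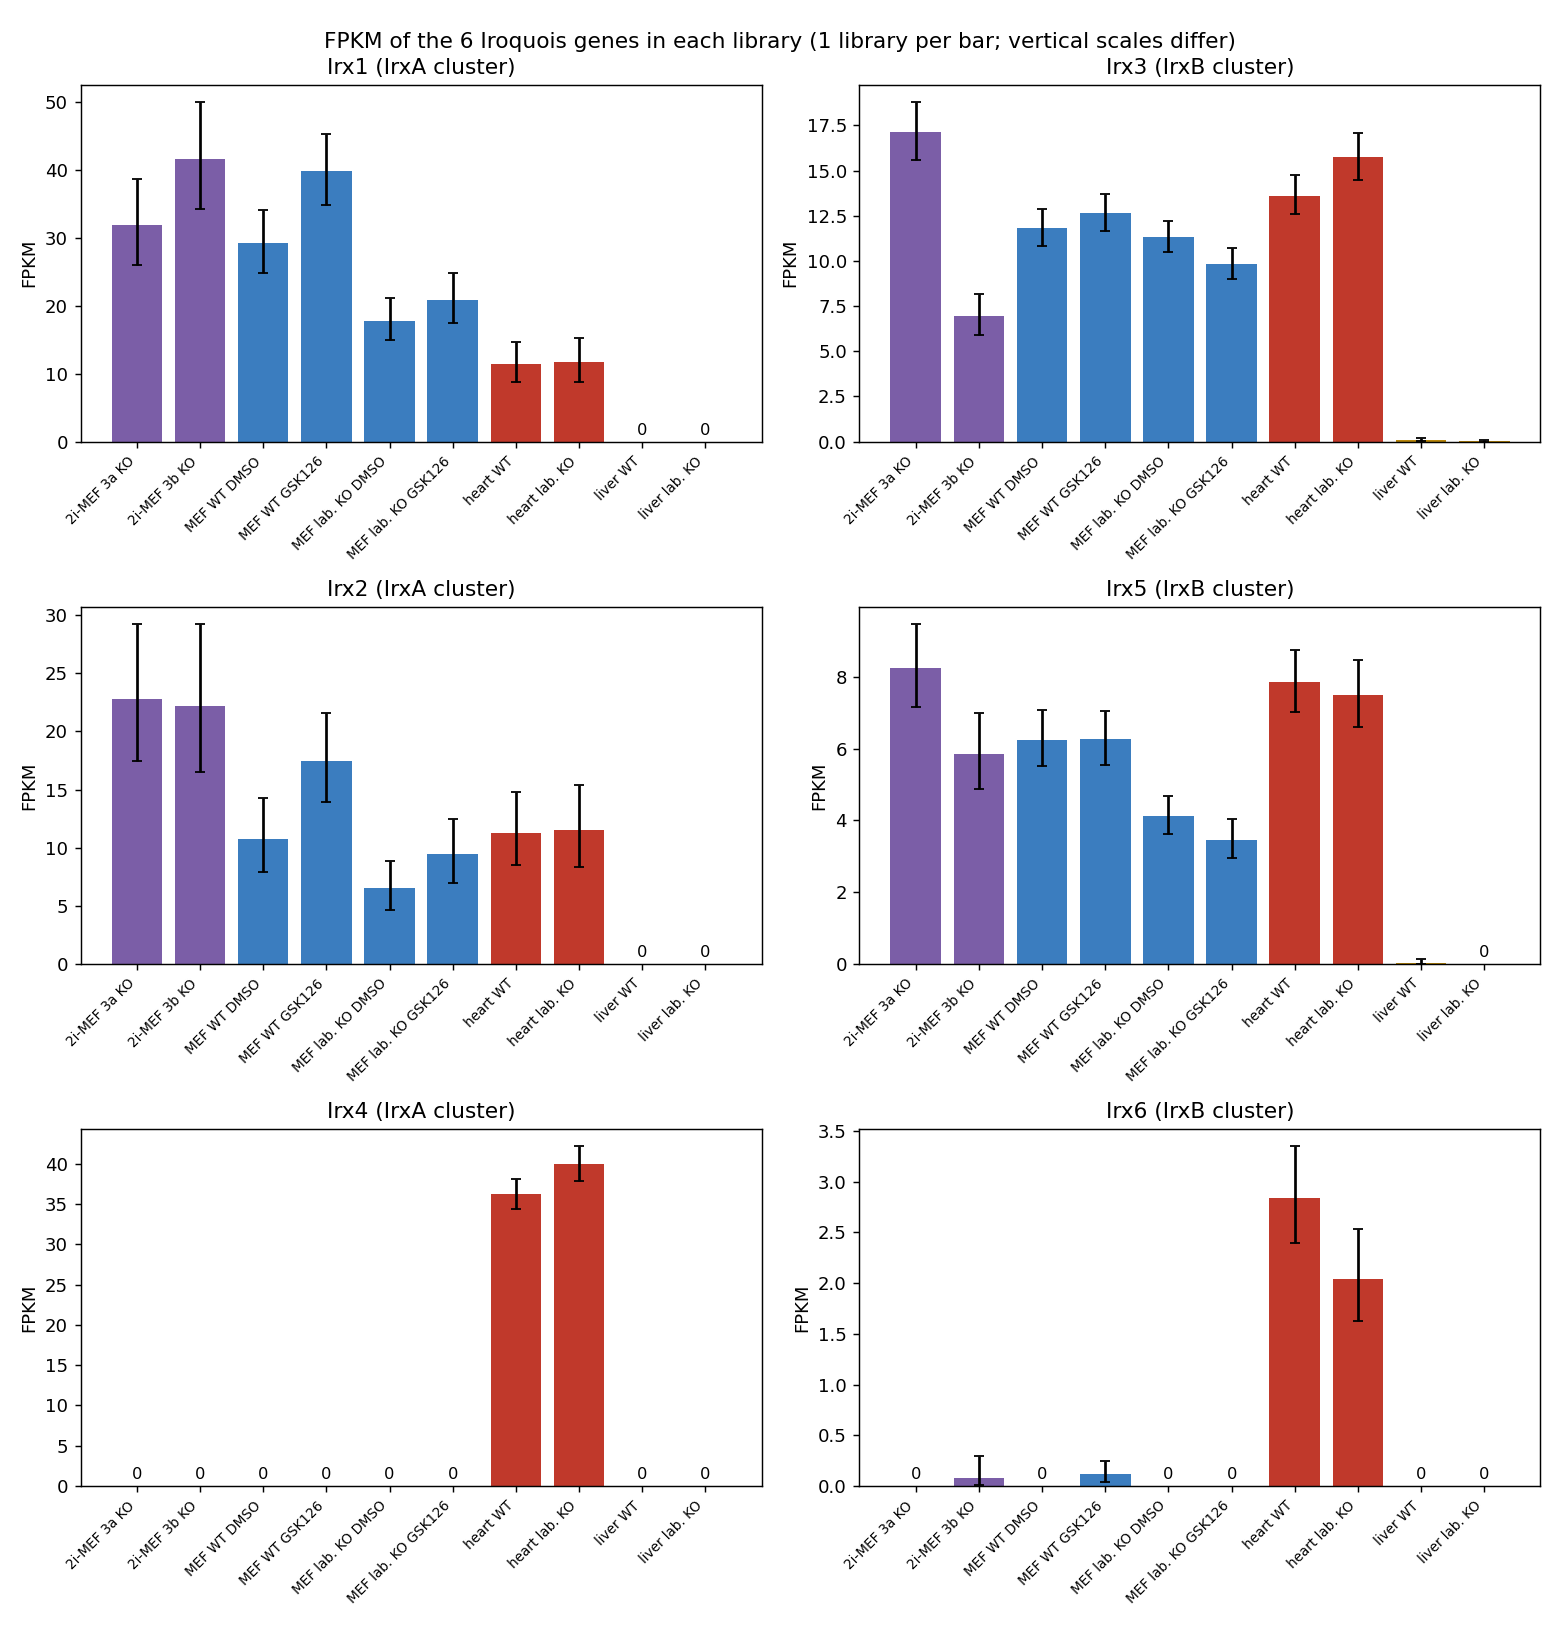
Level of each Iroquois gene in FPKM (vertical axis, from 0, a different scale in each panel) in the 10 libraries (horizontal axis, 1 bar each; lab. KO is labelled Dnmt3a KO, 3a and 3b are Dnmt3a and Dnmt3b). Whiskers are 95% counting intervals and 0 marks a gene listed at 0; Irx4 and Irx6 rise above 1 FPKM only in the 2 hearts, the other 4 genes in all fibroblast and heart libraries, and the livers are at or near 0 throughout.

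In the liver the whole family was at or near 0. Irx3 was at 0.0791 FPKM in the WT liver, about 5 reads, and at 0.0161 FPKM, 1 read, in the liver labelled Dnmt3a KO. Irx5 was at 0.0339 FPKM, 2 reads, in the WT liver and listed at 0 in the other. Irx1, Irx2, Irx4 and Irx6 were listed at 0 in both livers, which were among the deepest libraries. Whether fewer cells of a type or less RNA per cell lies behind such a level cannot be told apart in bulk tissue.

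The 6 genes summed to 83.3 and 88.5 FPKM in the hearts, 80.0 and 76.7 FPKM in the 2i-MEFs and 39.8 to 76.3 FPKM in the MEFs, against 0.113 and 0.0161 FPKM in the livers. The IrxA genes made up 61.1 to 83.2% of this sum outside the liver. That share was 70.8 and 71.4% in heart, within the 61.1 to 75.0% of the 4 MEF libraries. Its makeup differed: Irx4 was the largest term in heart, and Irx1 in MEFs.

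The order of the genes within a library could be read only where counting intervals did not meet. In heart Irx4 stood above Irx3, Irx1, Irx2 and Irx5 in both libraries, the neighbours among these last 4 overlapped, and Irx6 stood below them. Irx1 stood clear above the next gene in 5 of the 6 fibroblast libraries and overlapped with Irx2 in the Dnmt3a KO 2i-MEFs. Irx5 was the lowest of the 4 genes read in fibroblasts and overlapped with the gene above it in 2 libraries, with Irx3 in the Dnmt3b KO 2i-MEFs and with Irx2 in the MEFs labelled Dnmt3a KO with DMSO. For Irx1 and Irx2 the intervals are wide because they were set from the shortest annotated transcript, of 498 and 449 bases, which gives the fewest reads. The same holds for the intervals of their ratios below.

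The comparison of Dnmt3a KO with Dnmt3b KO 2i-MEFs asked how the genes stood when 1 or the other de novo enzyme was lost. Irx3 was the only one of the 4 Iroquois genes at 1 FPKM or more that lay at least 2-fold apart in FPKM + 1, at 17.1 FPKM with Dnmt3a deleted and 6.97 FPKM with Dnmt3b deleted. The FPKM ratio was 2.46 (2.05 to 2.97), a log2 ratio of 1.19 in FPKM + 1. Over all 13605 genes at 1 FPKM or more in either library, 9.01% lay at least 2-fold apart and 5.52% were higher in Dnmt3a KO by that much, so 1 gene of 4 is a small count to set beside the background, and 6.37% of genes lay as far apart as Irx3.

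Its cluster neighbour Irx5 leaned the same way, with an FPKM ratio of 1.41 (1.12 to 1.78). Irx1 leaned the other way, with a ratio of 0.765 (0.580 to 1.01), and Irx2 was at 1.03 (0.697 to 1.52). The ratio of Irx1 to Irx3 was therefore 1.85 in Dnmt3a KO and 5.97 in Dnmt3b KO, the latter being the highest over the 8 fibroblast and heart libraries, of which the lowest was 0.744 in the heart labelled Dnmt3a KO. The antisense RNA Irx3os, which starts within Irx3, on the other strand, and shares 124 exon bases with it (4.49% of the exon bases of Irx3), leaned as Irx3 did but less: Irx3 was 9.48 times as high as Irx3os with Dnmt3a deleted and 6.08 times with Dnmt3b deleted. Whether reads were counted by strand is not given in the sources used here, so reads in the shared bases cannot be told apart. Dnmt3a at 4.21 and 23.9 FPKM, and the skeletal muscle markers, which summed to 9.10 and 18.1 FPKM, moved with this comparison. Of those 5 markers 2 reached 1 FPKM, Acta1 lower and Tnni2 higher in Dnmt3a KO. The 5 endothelial and endocardial markers summed to 13.9 and 6.94 FPKM, of which Npr3 made up 13.7 and 6.61 FPKM, while Cdh5 and Tie1 were listed at 0. Of the 5 mesothelial and epicardial markers Wt1 was at least 2-fold lower in Dnmt3a KO, at 1.57 against 6.22 FPKM, and their sums were 13.7 and 15.9 FPKM. Their part in the Irx3 difference was not tested. Of 12 homeobox and T-box genes of limb and mesenchyme tested in the same comparison, Prrx2 and Msx1 were at least 2-fold higher and Shox2 and Lhx9 lower in Dnmt3a KO, beside 9.01% of all genes in either direction.

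In MEFs from embryos with DMSO the 4 expressed Iroquois genes were all lower in the library labelled Dnmt3a KO than in WT, and none was as much as 2-fold apart, beside 6.26% of 13695 genes. Irx1 was at 17.8 against 29.2 FPKM, a ratio of 0.611 (0.482 to 0.774), and Irx2 at 6.51 against 10.8 FPKM, a ratio of 0.605 (0.389 to 0.937). Irx5 had a ratio of 0.659 (0.549 to 0.789). The Irx3 ratio of 0.960 (0.855 to 1.08) spanned equality. Their 4 log2 ratios had a median of -0.58, where all genes had 0.04, and 4.89% of genes were lower by as much as Irx1.

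With GSK126 the same pair of genotypes gave Irx1 at 20.9 against 39.8 FPKM, a ratio of 0.525 (0.420 to 0.653), and Irx2 at 9.43 against 17.5 FPKM, a ratio of 0.540 (0.372 to 0.777). Irx5 had a ratio of 0.553 (0.453 to 0.673) and Irx3 of 0.775 (0.687 to 0.874). None was 2-fold apart in FPKM + 1, beside 5.83% of 13581 genes, and the nearest to that line was Irx1 with a log2 ratio of -0.90. The median of the 4 genes was -0.76, where that of all genes was 0.01. This comparison shares no library with that under DMSO, while each shares its libraries with the comparisons of GSK126 with DMSO; whether cells given DMSO and GSK126 came from the same embryos is not given in the sources used here.

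Other features of these MEF libraries moved with the genotype label. The 5 mesothelial and epicardial markers summed to 50.7 and 61.8 FPKM in WT and to 120 and 310 FPKM in the libraries labelled Dnmt3a KO, with DMSO and GSK126, and 4 of the 5 tested with DMSO and 4 of the 4 tested with GSK126 were at least 2-fold higher there. The 5 fibroblast markers summed to 11016 and 7873 FPKM in WT and to 8426 and 5334 FPKM labelled Dnmt3a KO, with none listed at 0, and Col3a1 and Lum were at least 2-fold lower there with GSK126. The 5 epithelial markers summed to 1.82 and 1.81 FPKM in WT and 4.83 and 10.3 FPKM labelled Dnmt3a KO, nearly all of it Krt8 (4.62 and 9.87 FPKM). With DMSO the muscle genes Acta1, at 40.5 against 15.5 FPKM, and Tnnt2, at 6.42 against 1.49 FPKM, were also higher in the library labelled Dnmt3a KO, and Tnni2 and the endothelial gene Cdh5 were lower. Homeobox and T-box genes of limb and mesenchyme, among which Irx3 and Irx5 act, were lower in the library labelled Dnmt3a KO for 7 of 14 tested with DMSO and 5 of 14 with GSK126, and higher for 1 of 14 in each, beside 6.26 and 5.83% of all genes in either direction. Examples were the hindlimb genes Pitx1, at 10.9 against 50.5 FPKM with DMSO, and Tbx4, at 3.75 against 15.5 FPKM, and the distal limb gene Hoxd13, at 0.222 against 3.90 FPKM. The list had a median log2 ratio of -1.04 with DMSO and -0.79 with GSK126. The part of these differences in the Iroquois values was not tested.

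GSK126 was compared with DMSO within each genotype label, since EZH2 lays down the Polycomb mark at silent developmental genes. In WT MEFs Irx2 had the largest ratio of the family, 17.5 FPKM with GSK126 against 10.8 FPKM with DMSO, a ratio of 1.62 (1.12 to 2.36), followed by Irx1 with 39.8 against 29.2 FPKM, a ratio of 1.36 (1.11 to 1.68). Irx3 was at 1.07 (0.951 to 1.21) and Irx5 stood at 6.27 against 6.25 FPKM, with an interval of 0.841 to 1.19 for the ratio. No Iroquois gene was 2-fold apart, beside 3.76% of 13490 genes, and 5.28% of genes were higher with GSK126 by as much as Irx2.

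In MEFs labelled Dnmt3a KO the intervals of Irx1 and Irx2 both spanned equality, with ratios of 1.17 and 1.45 and lower bounds of 0.914 and 0.937. They rest on the shortest annotated transcript, with 131 and 136 reads (GSK126, then DMSO) for Irx1 and 49 and 41 for Irx2. The longest transcript would give 959 and 992 reads for Irx1, 484 and 405 for Irx2, and narrower intervals. Spanning equality is therefore not read as a contrast with WT or with Irx3. Irx3 was at 0.866 (0.771 to 0.973) and Irx5 at 0.842 (0.686 to 1.03), and none of the 4 was 2-fold apart, beside 5.26% of 13654 genes. Irx4 was listed at 0 with and without GSK126 under both labels. Irx6 was listed at 0 in 3 of the 4 MEF libraries and was at 0.114 FPKM in WT with GSK126. Ezh2, which encodes the enzyme that GSK126 inhibits, and the Polycomb genes Ezh1, Eed and Suz12 were all at 1 FPKM or more in the MEFs. None of them lay 2-fold apart between GSK126 and DMSO under either label. Markers of other cell types moved with GSK126 too. In MEFs labelled Dnmt3a KO the mesothelial and epicardial sum was 310 FPKM with GSK126 and 120 FPKM with DMSO, with 3 of the 5 at least 2-fold higher (Upk3b, Msln and Upk1b), and Col3a1 was 2-fold lower among the 5 fibroblast markers, which summed to 5334 against 8426 FPKM. In WT MEFs the fibroblast markers summed to 7873 against 11016 FPKM with none 2-fold apart, and of the 5 cardiomyocyte markers Tnnt2 was higher, at 6.76 against 1.49 FPKM. The part of these markers in the Iroquois ratios was not tested.

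In heart the 6 Iroquois genes were much alike under both genotype labels. Irx1 had a ratio of 1.02 (0.699 to 1.49) of labelled Dnmt3a KO to WT, Irx2 of 1.02 (0.666 to 1.55) and Irx5 of 0.954 (0.808 to 1.12). Irx4 was at 1.10 (1.02 to 1.19) and Irx3 at 1.16 (1.03 to 1.30). Irx6 had the ratio farthest from equality, 0.719 (0.542 to 0.950), from at least 142 and 83 reads. None was 2-fold apart, beside 4.04% of 13828 genes, and the counting intervals bound every member's ratio between 0.542 and 1.55. The hepatocyte markers summed to 32.7 FPKM in the WT heart and 7.08 FPKM in the other, and 4 of the 4 tested were at least 2-fold lower in the latter. The part of these markers in the Iroquois values of the hearts was not tested. In the liver no Iroquois gene reached 1 FPKM, so none was compared between the labels, where 3.68% of 13279 genes lay 2-fold apart.

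**Figure D2:**
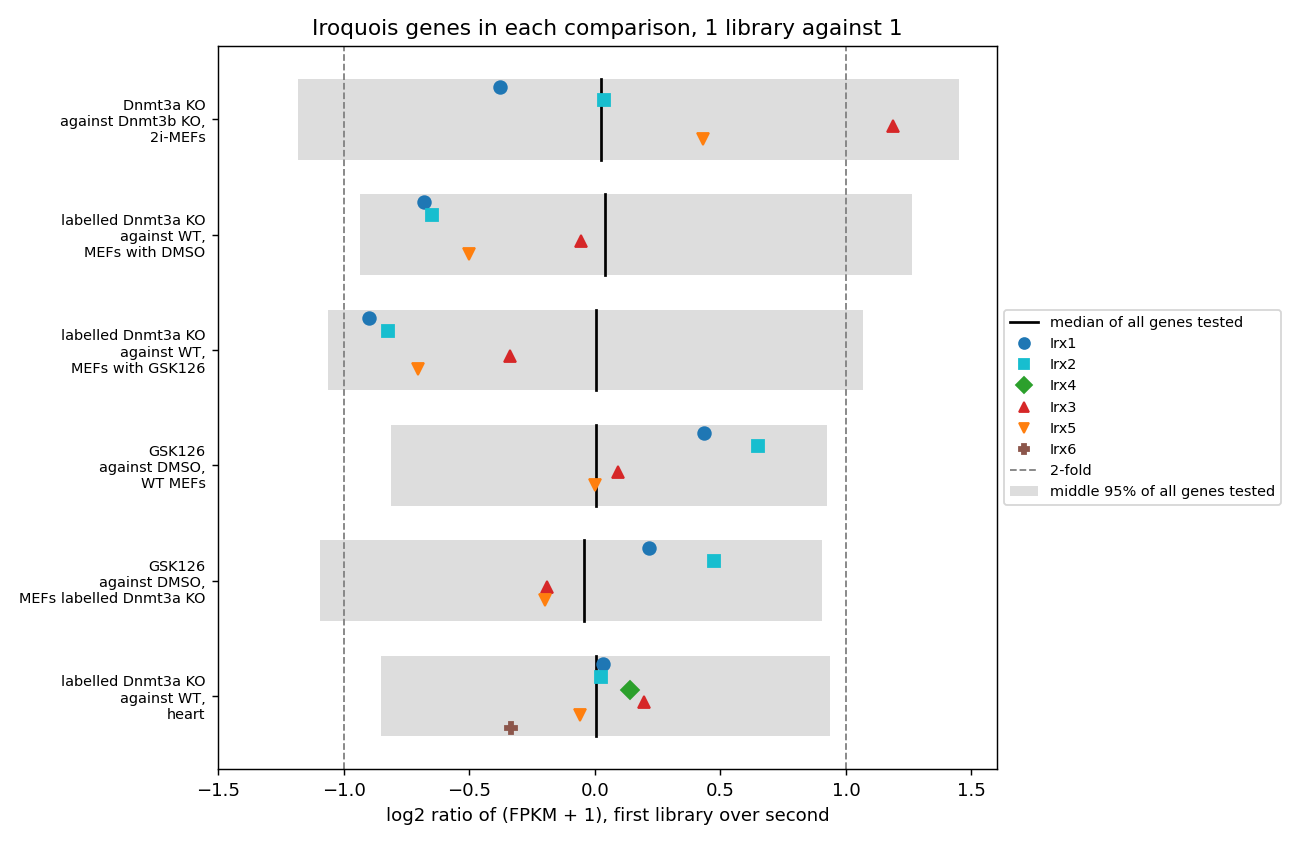
Log2 ratio of FPKM + 1 (horizontal axis, first library over second) for each Iroquois gene at 1 FPKM or more in the 6 comparisons that leave out liver (vertical axis). Grey bars span the middle 95% of all genes tested, the black line is their median and dashed lines mark 2-fold; Irx3 in 2i-MEFs, at 1.19, is the only Iroquois point past a dashed line, and no point leaves the grey bars.

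Heart was last compared with liver under each label. All 6 Iroquois genes passed the filter of 1 FPKM through heart alone, so that a 2-fold difference in FPKM + 1 was nearly fixed once they were admitted. All 6 were higher in heart by that much under both labels, where 20.6% of 14572 genes were in WT and 23.7% of 14567 genes were when labelled Dnmt3a KO, and nothing is read from this count. The FPKM of Irx3 was 172 times as high in the WT heart as in the WT liver (73.4 to 532), and that of Irx5 was 232 times as high (63.6 to 1921), where the wide intervals come from 5 and 2 liver reads. In the pair labelled Dnmt3a KO the Irx3 ratio was 977 (175 to 38655), from 1 liver read, so its size is not set apart from that in WT. For the members listed at 0 in liver no ratio of FPKM is given, since its size would be set by the pseudocount. Heart and liver of each genotype carry the same label number, the 2 comparisons share no library, and the organs differ throughout in cell types: endothelial markers were higher in heart for 5 of 5 and erythroid markers lower for 5 of 5, in WT.

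Other TALE genes were counted beside the family in the fibroblast comparisons. Of 12 TALE genes outside the family, each at 1 FPKM or more in either library compared, none was 2-fold apart between Dnmt3a KO and Dnmt3b KO 2i-MEFs, and none between the genotype labels in MEFs with either agent, beside 9.01, 6.26 and 5.83% of all genes. Tgif2, at 2.94 against 0.447 FPKM, was the only TALE gene 2-fold apart between GSK126 and DMSO in WT MEFs, beside 3.76% of all genes. Counts of 0 or 1 in 12 are not far from these shares.

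Cardiac genes among which Irx4 is known to act were listed beside it. Of 13 cardiac transcription factors tested in WT, 11 were at least 2-fold higher in heart than in liver, beside 20.6% of all genes, but 5 of these (Nkx2-5, Tbx5, Tbx20, Hey2 and Isl1) were under 1 FPKM in liver and passed the filter through heart alone. Among the 8 at 1 FPKM or more in both organs 6 were higher, beside 15.9% of 11526 such genes, for example Gata4 at 120 against 14.8 FPKM, and 1 was lower, Tbx3, at 1.62 against 5.42 FPKM. Nkx2-5 was at 179 FPKM against a listed 0, and Hey2, a ventricular factor, at 28.4 against 0.341 FPKM. All 5 ventricular genes and 5 of 6 atrial genes were higher in heart, 3 and 2 of them through heart alone. Not every gene of these lists was highest in heart: Nr2f2, at 6.36 and 5.02 FPKM there, was at 8.30 to 31.5 FPKM in the fibroblast libraries, and Tbx3 was at 2.09 to 11.0 FPKM in them. Kcnd2, the potassium channel gene tied to Irx5, was only at 0.862 and 1.02 FPKM in the hearts, while the connexin genes Gja5 and Gja1, targets of Irx3 in the conduction system, were at 91.9 and 99.9 FPKM and at 172 and 175 FPKM. In the fibroblast libraries Gja5 was at 0.271 FPKM or less, whereas Gja1 was at 129 to 314 FPKM, above the hearts in 5 of 6. Between the heart labels 1 of the 13 cardiac factors was 2-fold apart, beside 4.04% of all genes: Tbx3, at 5.24 FPKM labelled Dnmt3a KO against 1.62 FPKM in WT, while Irx4 stood at 40.0 against 36.2 FPKM.

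Hedgehog genes were listed because Irx3 and Irx5 work with Gli3 in the limb. Gli3 was at 9.60 and 8.39 FPKM in the Dnmt3a KO and Dnmt3b KO 2i-MEFs and at 9.24 to 13.1 FPKM in MEFs, and 0 of 8 genes tested were 2-fold apart in 2i-MEFs, beside 9.01% of all genes. In MEFs with DMSO 2 of 8 were lower in the library labelled Dnmt3a KO, where 6.26% of all genes were 2-fold apart in either direction, Gli2 at 3.56 against 8.56 FPKM and Gas1, a coreceptor, at 71.2 against 151 FPKM, and none was higher. With GSK126 4 of 10 were lower, Gli1, Gli2, Gas1 and Cdon, and none was higher, beside 5.83% of all genes in either direction.

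The genes around the clusters served as a check on how far the Iroquois patterns reached along the chromosome. Within 500 kb of IrxA the table held 27 other annotated genes, of which 14 were listed at 0 in all libraries and 8 reached 1 FPKM, every one of them on the Irx4 side. Within 500 kb of IrxB it held 43, of which 14 were listed at 0 throughout and 11 reached 1 FPKM. Fto, whose introns hold elements that contact Irx3, was read in all 10 libraries, at 49.9 and 57.0 FPKM in the hearts and 24.4 and 26.0 FPKM in the livers, where Irx3 had 5 reads or fewer. In WT, 4 of the IrxB neighbours were at 1 FPKM or more in both organs, of which Fto, Crnde and Mmp2 were at least 2-fold higher in heart and none lower, where 15.9% of 11526 such genes were higher. Gm9619, Irx3os, Gm36670 and Gm3272 were higher too but passed the filter through heart alone, and Ces1d was lower, at a listed 0 against 6.45 FPKM. Of the 5 IrxA neighbours at 1 FPKM or more in both organs none was higher in heart and Lpcat1 was lower. Ndufs6, the first coding gene past Irx4 at 1 FPKM or more and a subunit of mitochondrial complex I, was at 427 and 415 FPKM in heart, 239 and 246 FPKM in liver and 87.7 to 105 FPKM in fibroblasts, where Irx4 was listed at 0.

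A few neighbours had their highest levels in the hearts. Crnde, a noncoding RNA that starts close to Irx5, was at 21.9 and 18.0 FPKM in the hearts, 5.74 and 3.15 FPKM in the livers and 1.96 to 2.66 FPKM in fibroblasts, whereas Irx5 was at 2 reads or fewer in the livers. The unnamed transcript AC154266.1, past Irx4, was at 4.97 and 3.23 FPKM in the hearts and at most 0.343 FPKM in the other libraries. Gm36670, between Irx3 and Irx5, was at 1.21 and 0.484 FPKM in the hearts and listed at 0 elsewhere. Between Dnmt3a KO and Dnmt3b KO 2i-MEFs, Mmp2 was the only one of 13 neighbours tested that lay at least 2-fold apart, at 774 against 368 FPKM, a share close to the 9.01% of all genes. It lies past Irx6, with Irx5 (1.41) and Irx6, at 2 reads or fewer in these libraries, between it and Irx3.

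**Figure D3:**
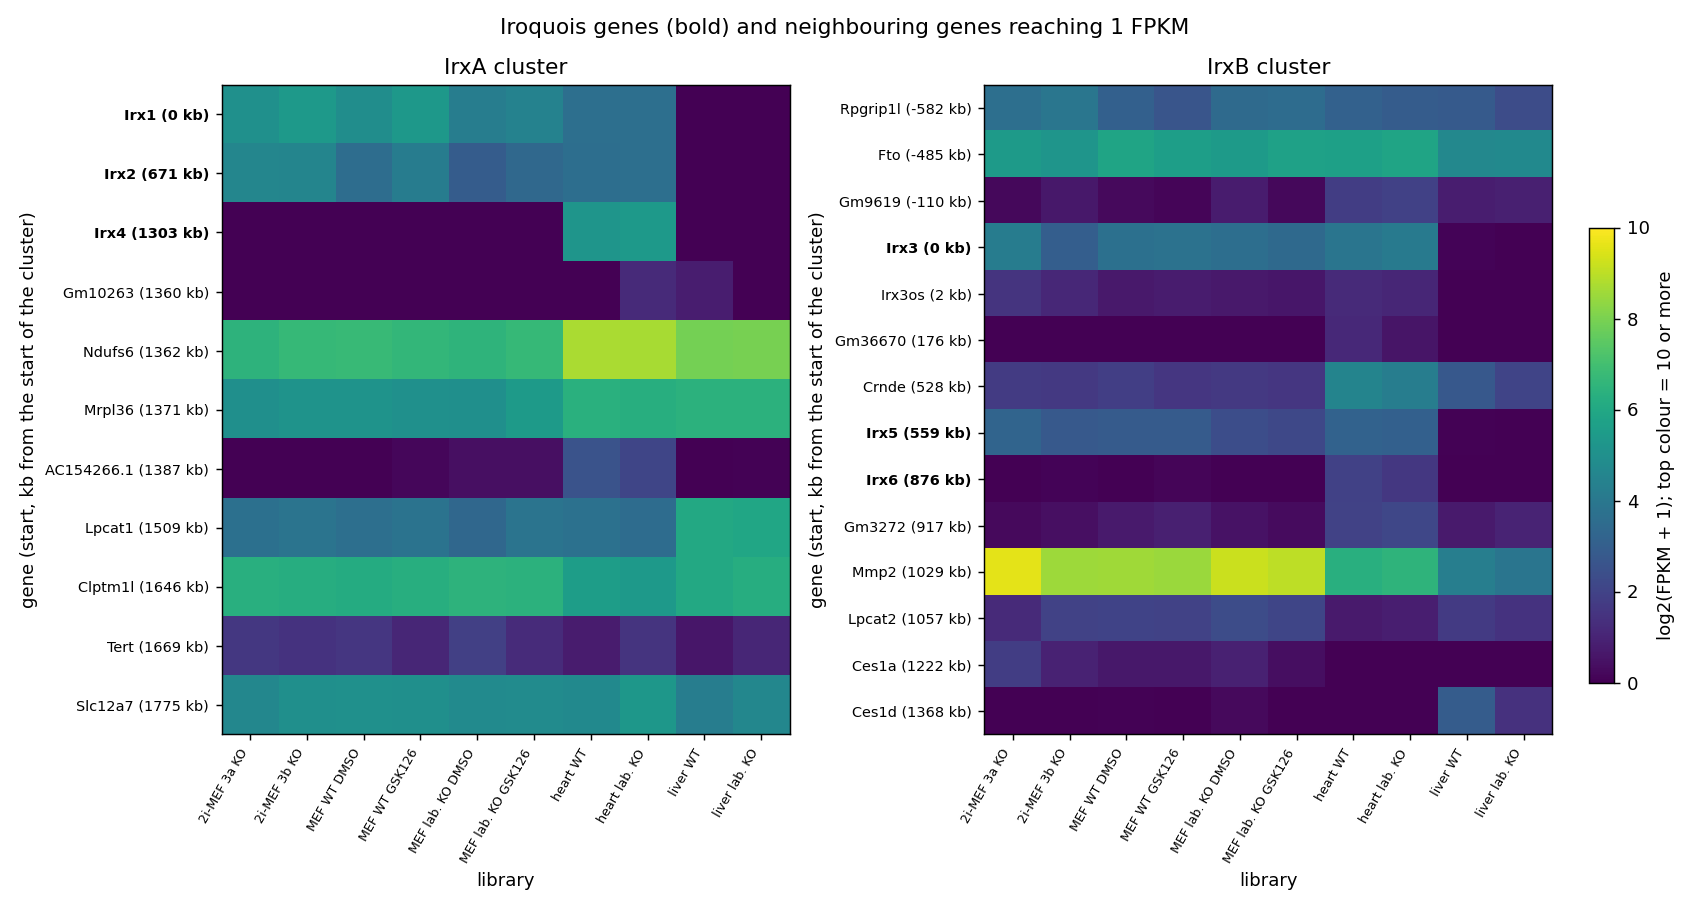
Log2(FPKM + 1) as colour (scale from 0 to 10) for the Iroquois genes, in bold, and for neighbours within 500 kb of either cluster that reached 1 FPKM, ordered down the vertical axis by distance in kb from the start of the cluster; the libraries run along the horizontal axis. In the liver columns the Iroquois rows are dark while Fto and Ndufs6 are lighter, and Irx4 is bright in the 2 heart columns alone.

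Members of 1 cluster did not form 1 pattern. Over the 10 libraries, on log2(FPKM + 1), Pearson's r was 0.967 for Irx1 and Irx2, 0.975 for Irx3 and Irx5 and 0.990 for Irx4 and Irx6, the last pair from different clusters. Irx1 and Irx4, from the same cluster, had r = -0.004. These values are descriptions, since the libraries fall into fibroblasts, heart and liver. Within the 6 fibroblast libraries r was 0.893 for Irx1 and Irx2 and 0.494 for Irx3 and Irx5. Between the clusters it was 0.779 for Irx2 and Irx5, 0.724 for Irx1 and Irx5, 0.0708 for Irx2 and Irx3 and -0.102 for Irx1 and Irx3.

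The genes most like each member were found by the same r among 12664 genes (12665 for Irx6) reaching 5 FPKM in at least 1 library. For Irx4 they were Pln, which encodes phospholamban, the regulator of the calcium pump in heart muscle, Atcayos, and Lrrc10, a heart muscle protein gene, each with r of 1.0 to 3 decimals since all were near 0 outside the hearts. For Irx6 they were Sphkap (0.997), Ddo (0.997) and Igfbpl1 (0.997), and Irx4 ranked 45 in this list. For Irx1 they were Atrnl1 (0.993), Htra1 (0.993), a secreted protease gene, and Nkain1 (0.992), with Irx2 at rank 134. For Irx2 they were Ephb3 (0.992), an ephrin receptor gene, Nek9 (0.991) and Elk3 (0.987), with Irx1 at rank 24.

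For Irx3 the closest were 2510009E07Rik (0.991), Arpin (0.989) and Calcoco1 (0.987), with Irx5 at rank 28. For Irx5 they were Sall2 (0.992), a zinc finger factor, Mllt6 (0.990) and Kdm6b (0.983), which encodes a demethylase of the Polycomb mark, with Irx3 at rank 9. By this r over 10 libraries the closest partner inside the family was the next gene of the cluster for Irx1, Irx2, Irx3 and Irx5, but by Spearman's correlation Irx2 was closer to Irx5 (0.815) than to Irx1 (0.780), and within fibroblasts Irx5 was closer to Irx2 than to Irx3 by r but closer to Irx3 by Spearman's correlation (0.829 against 0.771). The names depend on the libraries and the measure, since only 4 of the 18 were named again when the livers were left out.

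**Figure D4:**
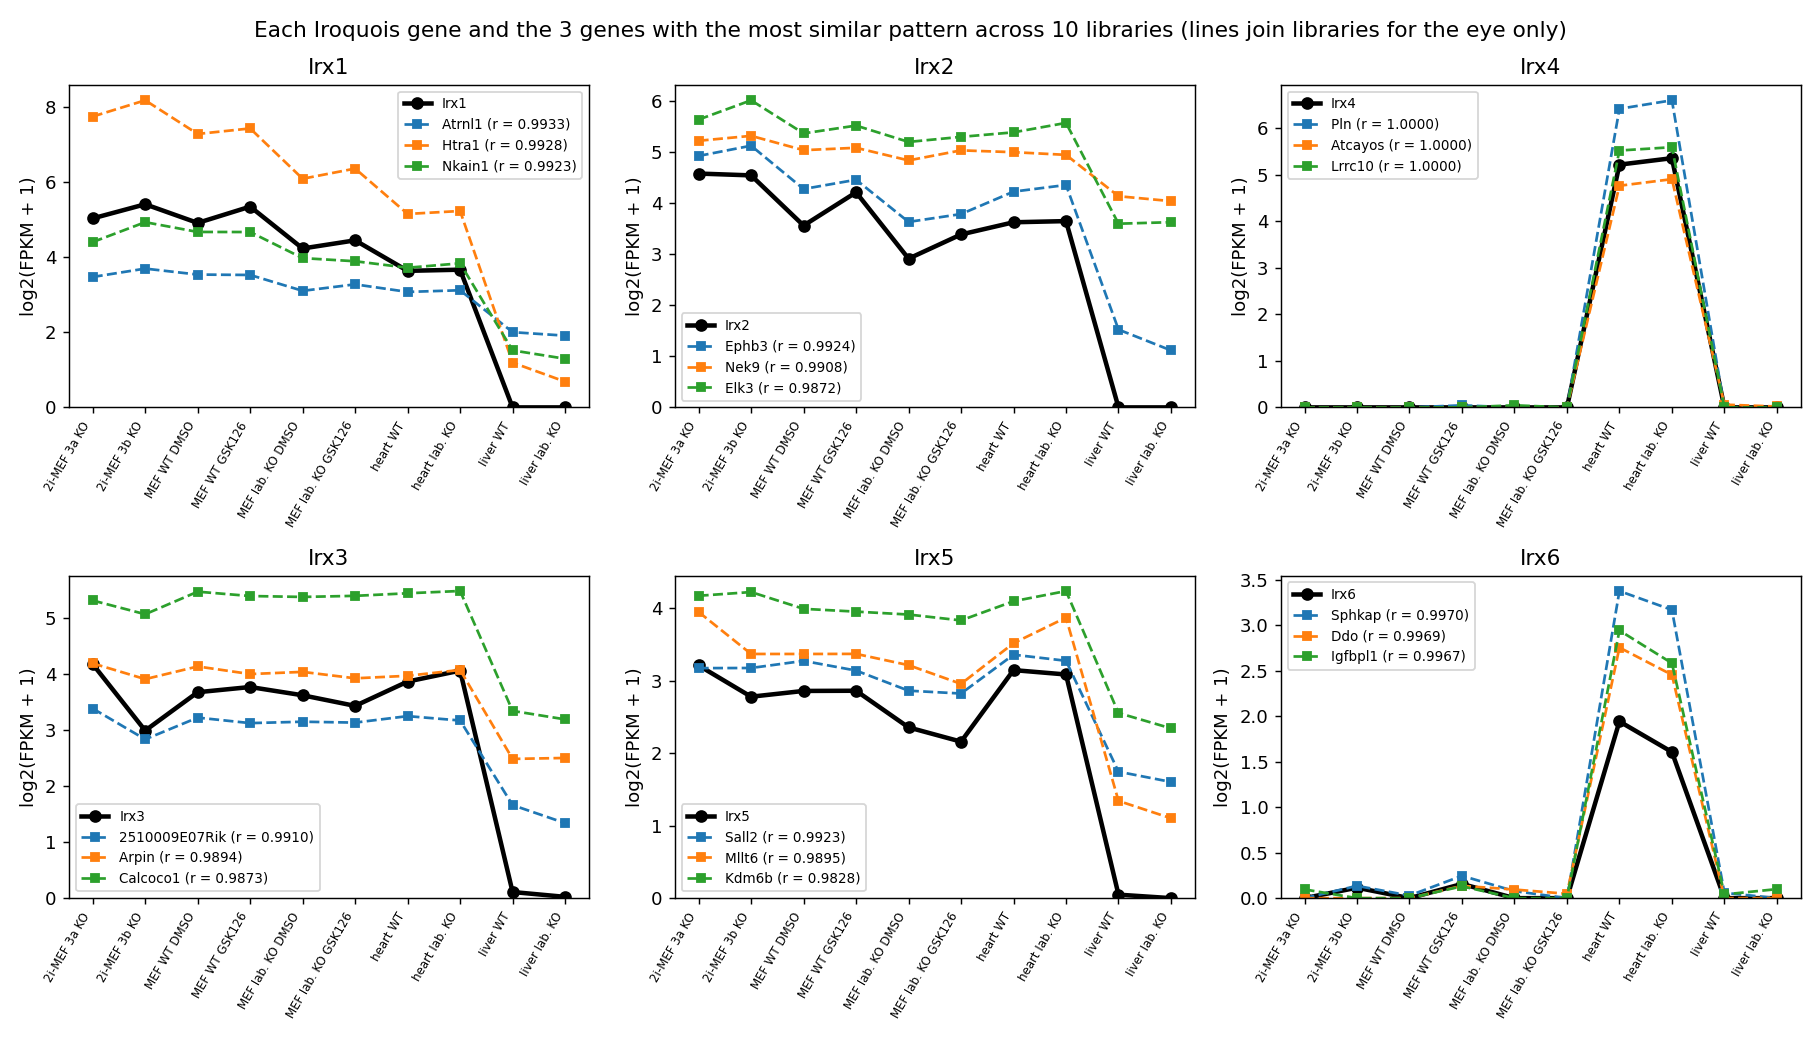
Log2(FPKM + 1) (vertical axis) of each Iroquois gene, in black, and of the 3 genes with the highest Pearson's r to it, in colour, across the 10 libraries (horizontal axis; lines only guide the eye). Irx4 and Irx6 and their partners rise in the 2 hearts alone, and the other 4 members and their partners drop in the 2 livers.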

How the data were processed

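Per the study's methods, stranded mRNA libraries were read as single reads, aligned to mm10 with the GENCODE annotation and summarised by Cufflinks. The submitters' processing notes name TopHat2 2.1.0, cutadapt 1.9.1 and Cufflinks 2.2.1. The deposited values are FPKM per gene, made by the authors for each library; no counts were used. Depth was estimated from low values, which are whole multiples of 1 read: 97.95 to 99.14% of values under 10 reads lay within 0.1 of a whole read (20% by chance). Intervals (Poisson, or binomial for a ratio) use these estimated reads.

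Python 3.11.15, pandas 2.3.3, numpy 2.4.6 and scipy 1.17.1 were used. Rows sharing a symbol were summed. Ratios are log2 of FPKM + 1 over genes at 1 FPKM or more in either library, and genes at least 2-fold apart were counted. In the closing section, limma 3.58.1 was fitted over 4 libraries at a time. The scripts were tested on simulated data. Named genes were the 6 members, the 3 genes of highest Pearson's r to each, neighbours within 500 kb and listed genes; those quoted from lists were chosen after their values were seen. Members and lists were chosen with earlier results of these data known. Promoters came from RefSeq for the 3 members it matched (Irx2, Irx3 and Irx4). Deposited starts count from 0, and 1 was added. The comparison of other TALE genes between heart and liver is not reported here.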

Additional observations from a re-analysis of the deposited data

Results flagged for a closer look

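With 1 library per condition, the differences between these ratios were not tested; each is a pair of log2 ratios of FPKM + 1 with opposite signs, and a near-zero ratio can change sign by counting error alone. GSK126 against DMSO gave Irx3 0.09 in WT MEFs and -0.19 in MEFs labelled Dnmt3a KO, a difference of 0.28, and Irx5 0.00 and -0.20, a difference of 0.20. Labelled Dnmt3a KO against WT gave Irx1 -0.68 in MEFs with DMSO and 0.03 in heart, a difference of -0.71. For Irx2 the values were -0.65 and 0.02, a difference of -0.67, and for Irx3 they were -0.05 and 0.20, a difference of -0.25. The Irx1 and Irx2 counting intervals lay below equality in MEFs and spanned it in heart.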

How the results depend on the processing

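The number of Iroquois genes at least 2-fold apart was counted again in all 9 comparisons with a pseudocount of 0.1 FPKM, with ratios centred on the median gene, with no filter on low values and with the highest row per symbol, and was the same each time. With a threshold of 1.5-fold it moved from 0 to 2 in MEFs with DMSO and from 0 to 3 in MEFs with GSK126 (lower when labelled Dnmt3a KO, beside 2522 of 13695 and 2174 of 13581 genes in either direction) and from 0 to 1 for GSK126 in WT MEFs (1545 of 13490 genes). Of 38 log2 ratios of members, 37 stayed within their counting interval after centring and 27 with the smaller pseudocount. The others were all of heart against liver, where the pseudocount sets the size (Irx1 in WT moved from 3.64 to 6.85). No sign of a 2-fold difference turned. Of the 18 most similar genes, 4 were named again by Spearman's correlation, 6 with the smaller pseudocount, 14 with genes reaching 1 FPKM admitted, and 4 without the livers, the last an alternative chosen after seeing the data. Fits chosen after seeing the data joined the conditions, so that 1 genotype label or agent stood in for a replicate of the other. With limma on log2(FPKM + 1) and Benjamini-Hochberg adjustment, 6 of 6 Iroquois genes passed between heart and liver over 4 libraries, and 6 of 6 in the paired fit with the shared label number as a replicate block, which left 1 residual degree of freedom (58.1% of 15146 genes passed). Nothing is read from this count, since all 6 were admitted through heart alone and had 0 to 5 liver reads. For the genotype label in MEFs 0 of 4 passed, with or without the agent as a term, and 3 had an unadjusted p under 0.05 with it (1 of 14223 genes passed adjustment, 1648 before it). For GSK126 0 of 4 passed in either fit, and 1 had an unadjusted p under 0.05 with the genotype label as a term (0 genes passed adjustment, 1055 before it). No condition had a replicate to leave out. Irx6 in fibroblasts and the whole family in liver rest on 0 to 7 reads, so differences there were not detectable at this depth.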
